A study of Mus musculus with 6 samples.

Results

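Immediate early genes are the first genes that a cell transcribes when it is stimulated, and 10 of them were followed in the embryonic lateral ganglionic eminence (LGE) of mice without Dlx1 and Dlx2. They are Fos, Fosb, Fosl2, Jun, Junb, Egr1, Egr2, Egr3, Npas4 and Arc. They were chosen by name, and each was found once among the 21286 genes of the count table. Of these genes 9 encode transcription factors, while Arc encodes a protein of the synapse and cytoskeleton and is no transcription factor. The LGE is the part of the ventral forebrain that gives rise to striatal projection neurons and to olfactory bulb interneurons.

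RNA was sequenced in 3 libraries from Dlx1/2 -/- mutants, which lack a pair of homeobox factors of ganglionic eminence progenitors and young neurons, and in 3 libraries from wild type littermates. All were of embryonic day 16.5 and of a mixed C57BL/6J, 129S6 and CD1 background, dissected in ice-cold buffer and flash frozen. How the alleles were made, whether embryos were pooled and whether replicates are different embryos is not stated in the labels, so p-values measure only the spread between these libraries, which may be technical. The counts summed to 15670067 to 16196974 per library in the mutant and to 10711630 to 16588359 in wild type.

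The labels were checked on the targeted genes. Dlx2 was at 16.8 ± 1.68 CPM (TMM-scaled counts relative to library size) in the mutant and at 436.3 ± 29.8 CPM in wild type, and Dlx1 at 122.1 ± 14.4 CPM in the mutant and 857.9 ± 35.7 CPM in wild type (SD, n = 3 each). All 15 marker genes of the LGE passed the filter on low counts. Results were also computed without replicate 3 of both groups, an alternative chosen after the data were seen.

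Immediate early genes need no new protein to be switched on. Kinase cascades and calcium act on factors already bound at their promoters, among them SRF with its Elk partners and CREB. The Fos and Jun proteins pair through leucine zippers into AP-1, which binds a short palindrome, and Fos proteins need a Jun partner to do so. Egr proteins bind a GC-rich site through zinc fingers, Npas4 answers to calcium in neurons and pairs with Arnt proteins, and Arc mRNA is carried to active synapses. In brain tissue these genes are read as signs of neuronal activity, and handling of tissue can induce them as well.

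Promoter sequence is shown for 4 of the genes: Jun, the gene that was higher in the mutant, and Fosl2, Npas4 and Fos, which were lower. Each line holds the 250 bases before the RefSeq transcription start on GRCm38.p6, 5′ to 3′ on the strand of the gene. RefSeq windows were taken for 7 of the 10 genes. None was taken for Egr1, Egr3 and Arc, which does not show that RefSeq lacks one for them. Capitals mark matches, on either strand, of 4 motifs searched by their letters and of the CArG box, to which SRF binds. The letters were TGACGT (core of the CREB site), TGACATCA (an AP-1-like site), TGANTCA (AP-1) and GCGNGGGCG (Egr).
Jun, chr4:95052223-95052472, minus strand: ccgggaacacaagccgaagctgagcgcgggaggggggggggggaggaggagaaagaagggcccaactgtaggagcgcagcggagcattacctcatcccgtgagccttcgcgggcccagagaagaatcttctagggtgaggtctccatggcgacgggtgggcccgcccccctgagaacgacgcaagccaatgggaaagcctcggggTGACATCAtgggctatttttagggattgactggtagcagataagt
Fosl2, chr5:32136222-32136471, plus strand: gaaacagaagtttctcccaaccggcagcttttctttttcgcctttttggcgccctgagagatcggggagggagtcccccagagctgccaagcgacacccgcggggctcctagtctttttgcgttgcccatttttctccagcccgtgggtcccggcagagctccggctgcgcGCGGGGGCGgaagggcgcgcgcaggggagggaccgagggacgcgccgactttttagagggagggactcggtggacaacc
Npas4, chr19:4989972-4990221, minus strand: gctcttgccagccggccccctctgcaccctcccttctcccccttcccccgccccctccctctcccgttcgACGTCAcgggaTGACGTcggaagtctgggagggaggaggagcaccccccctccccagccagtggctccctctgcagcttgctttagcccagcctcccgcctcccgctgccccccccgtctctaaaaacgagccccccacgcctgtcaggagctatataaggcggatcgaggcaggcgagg
Fos, chr12:85473640-85473889, plus strand: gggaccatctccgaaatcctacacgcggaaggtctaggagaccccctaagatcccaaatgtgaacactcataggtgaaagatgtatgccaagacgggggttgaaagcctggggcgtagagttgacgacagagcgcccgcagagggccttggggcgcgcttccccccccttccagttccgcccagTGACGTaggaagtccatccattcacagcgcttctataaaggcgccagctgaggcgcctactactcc

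The Jun window held TGACATCA, its first base 45 bases before the start. This is the element of the Jun promoter known as a site for Jun and ATF2 dimers. The Npas4 window held TGACGT at 180 and at 169 bases, on opposite strands, and the Fos window held it at 66 bases before the start. The Fosl2 window held GCGNGGGCG at 79 bases. No match of TGANTCA or of the CArG box lay in these 4 windows, and no 2 of the marked matches overlapped. The search covered these 250 bases only and cannot show whether such sites lie further upstream. In the windows not printed, Egr2 held matches of the CArG box and of TGACGT, though not in each of its windows. Fosb held GCGNGGGCG at 50 bases and no CArG box, and Junb held no match of any motif. Among all 32851 RefSeq windows of this length, 2.93% held TGACATCA, 6.47% TGACGT, 4.70% GCGNGGGCG, 6.75% TGANTCA and 1.47% the CArG box. These matches describe letters and show no binding.

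Of the 8 immediate early genes tested, 5 were lower in the mutant and 1 was higher. Fosl2, Egr3, Npas4, Fos and Egr1 fell, by 13.2-fold for Fosl2 and by 2.22-fold for Egr1 at the 2 ends. Jun rose 2.03-fold, Junb and Arc did not pass the test, and Fosb and Egr2 had too few reads to be tested. Of the 15326 genes tested in the whole table, 24.0% were called, 12.8% lower and 11.2% higher (p below 0.05 after Benjamini-Hochberg adjustment, from edgeR with its quasi-likelihood F test). A lower call together with a change of at least 2-fold, which all 5 of these genes had, was met by 4.04% of genes. In the mutant Fos reached the filter on low counts in 0 libraries and Egr3 in 1, so both were kept through their wild type reads and their place among the lower genes is no support for a shared direction. Of the 6 members that reached it in all mutant libraries, 3 fell (Fosl2, Egr1 and Npas4), 1 rose (Jun) and 2 did not pass (Junb and Arc). In bulk tissue fewer cells of a type and less RNA per cell cannot be told apart.

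**Figure D1:**
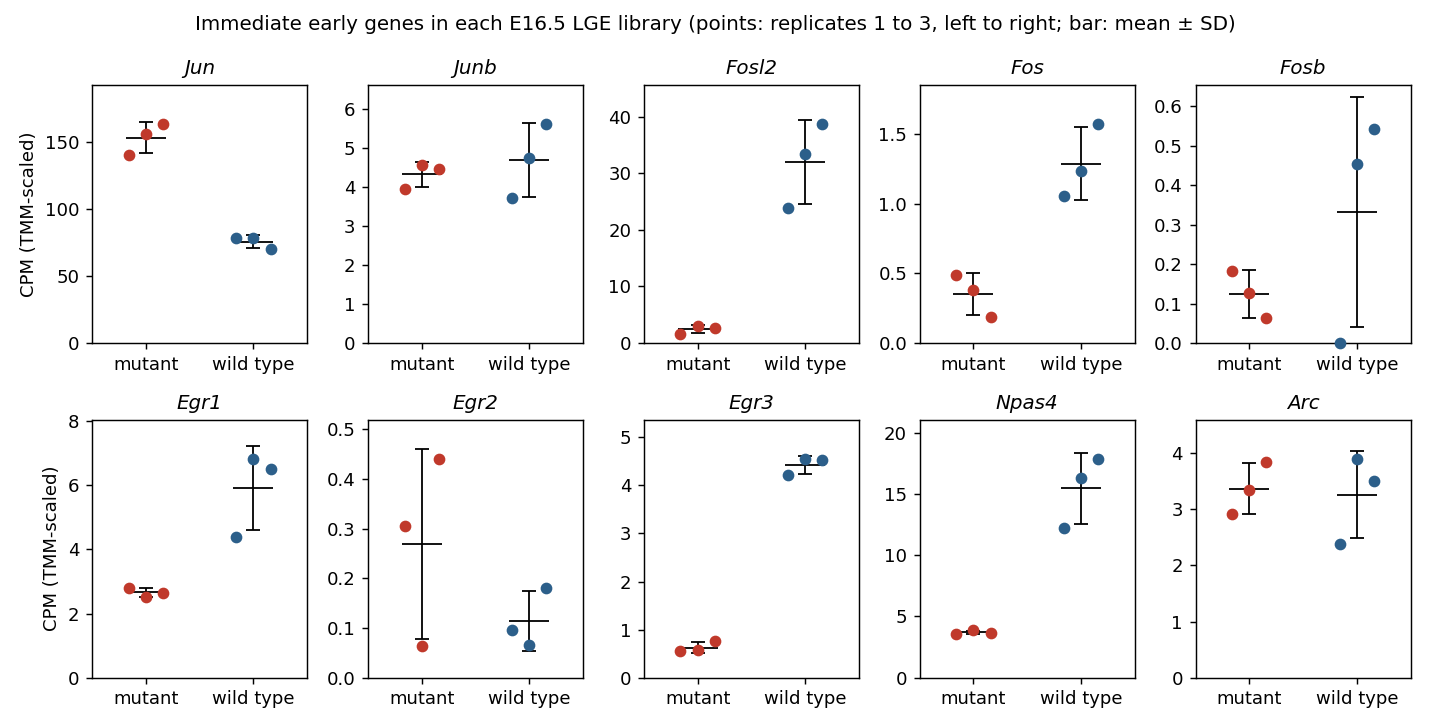
TMM-scaled CPM of the 10 immediate early genes in each library, one panel per gene with its own linear axis from 0, mutant left and wild type right. Points are libraries and bars the mean ± SD of 3; groups are apart for Jun, Fosl2, Fos, Egr1, Egr3 and Npas4 and overlap for the other 4.

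Among the Jun genes, Jun (ENSMUSG00000052684, GRCm38 chromosome 4, 95049034 to 95052222, minus strand, a single exon) was the most abundant member. It was at 140.4, 156.0 and 163.1 CPM in mutant replicates 1 to 3, and at 78.1, 78.5 and 70.1 CPM in wild type replicates 1 to 3. Every mutant library lay above every wild type library. The log2 fold change was 1.02 ± 0.083 (SE), with edgeR adjusted p = 4.53e-05. Junos, annotated on the opposite strand across Jun, was at 1.19 ± 0.0816 CPM in the mutant and 0.817 ± 0.0770 CPM in wild type. The strand setting of the counting is unknown, so reads of Jun and Junos cannot be told apart.

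Junb (ENSMUSG00000052837, chromosome 8, 84974484 to 84978718, minus strand), a Jun relative with weaker activating power, was at 3.96, 4.56 and 4.47 CPM in the mutant, and at 3.73, 4.74 and 5.61 CPM in wild type. The groups overlapped, with a log2 fold change of −0.13 ± 0.18 (edgeR adjusted p = 0.649). Junb shares its locus with Prdx2 on the opposite strand, which was far more abundant, at 534.8 ± 19.6 CPM in the mutant and 561.4 ± 22.4 CPM in wild type. Without a known strand setting, Junb reads cannot be told apart from reads of Prdx2.

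Among the Fos genes, Fosl2 (ENSMUSG00000029135, chromosome 5, 32135801 to 32157842, plus strand), which encodes the Fos-related protein Fra-2, changed most of all members. It was at 1.65, 2.91 and 2.70 CPM in the mutant, and at 23.9, 33.5 and 38.7 CPM in wild type. Its lowest wild type library was thus far above its highest mutant library. Fosl2 had a log2 fold change of −3.73 ± 0.33, with edgeR adjusted p = 2.67e-05, based on 116 reads over the mutant group and 1406 over the wild type group.

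Fos (ENSMUSG00000021250, chromosome 12, 85473890 to 85477273, plus strand), the founding member of the family, was rare in both genotypes. It had 8, 6 and 3 reads in mutant libraries and 11, 19 and 26 reads in wild type libraries, or 0.488, 0.380 and 0.189 CPM in the mutant and 1.05, 1.23 and 1.57 CPM in wild type. The groups did not overlap. The log2 fold change was −1.86 ± 0.40 with edgeR adjusted p = 0.00836, and the ratio of pooled reads was 0.268 with a 95% Clopper-Pearson interval of 0.146 to 0.467. Such intervals cover counting error only. Without replicate 3 of both groups the log2 fold change of Fos was −1.39 and edgeR's adjusted p = 0.0677.

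Fosb (ENSMUSG00000003545, chromosome 7, 19302696 to 19310051, minus strand), a Fos relative with a truncated protein form that lasts longer in stimulated neurons, had 3, 2 and 1 reads in the mutant and 0, 7 and 9 reads in wild type. Wild type replicate 1 lay below all mutant libraries, so the groups overlapped. The ratio of pooled reads was 0.331 (95% interval 0.106 to 0.889, counting error only). With no filter on low counts, its log2 fold change was −1.49 with edgeR adjusted p = 0.320.

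**Figure D2:**
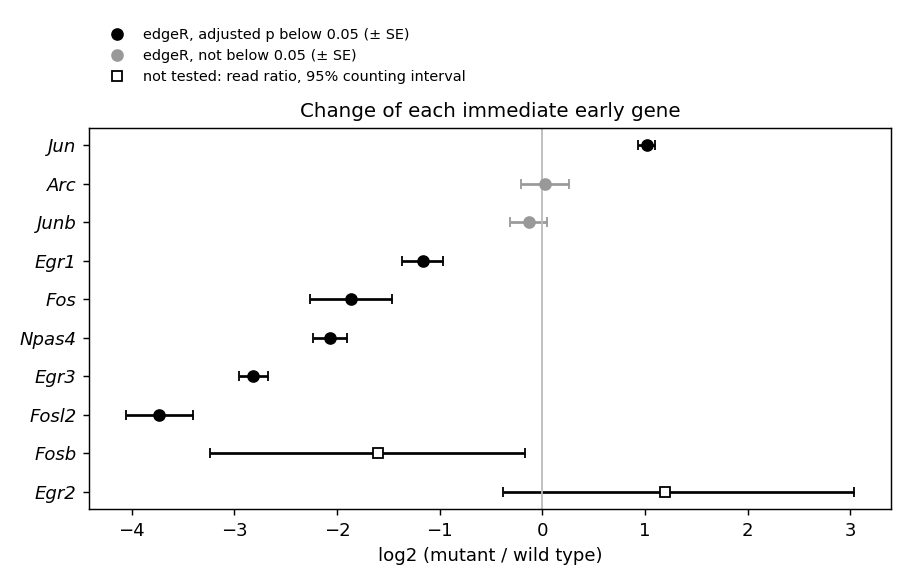
log2 ratio of mutant to wild type for each gene. Filled points are edgeR log2 fold changes ± SE, black where the adjusted p was below 0.05, and open squares are pooled read ratios with 95% counting intervals for the 2 genes not tested; Jun lies at 1.02 and Fosl2 at −3.73. The SE comes from the spread of the libraries and can lie below counting error, as for Egr3.

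Because the Fos proteins act only with a partner, the make-up of the 5 Fos and Jun genes followed here was compared per length, on the FPKM scale (fragments scaled to gene length and library size) that the authors deposited. Jun made up 94.7%, 94.5% and 94.9% of their summed FPKM in mutant replicates 1 to 3, against 84.9%, 80.6% and 76.0% in wild type replicates 1 to 3. Fosl2 made up 0.305%, 0.484% and 0.433% of that sum in the mutant, against 7.14%, 9.45% and 11.5% in wild type. The sum itself was higher in every mutant library, at 47.1, 52.2 and 53.9 FPKM, against 28.1, 30.5 and 28.9 FPKM in wild type. With the longest transcript as length, Jun made up 93.9% to 94.5% in the mutant and 68.9% to 79.7% in wild type, and Fosl2 0.538% to 0.855% in the mutant and 11.9% to 18.6% in wild type. These shares leave out Jund and Fosl1. Over all 7 Fos and Jun genes Jund had the largest share of FPKM, at 59.2% to 62.8% in the mutant and 69.8% to 71.9% in wild type. Of that wider sum Jun made up 34.4% to 36.7% in the mutant and 19.6% to 23.3% in wild type, and Fosl2 0.116% to 0.188% in the mutant and 1.96% to 2.97% in wild type. The groups did not overlap in any of these shares. Shares of a sum move together, so this follows in part from the calls of Jun and Fosl2 and is no further support for them. Jund itself was not called (edgeR adjusted p = 0.498).

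**Figure D3:**
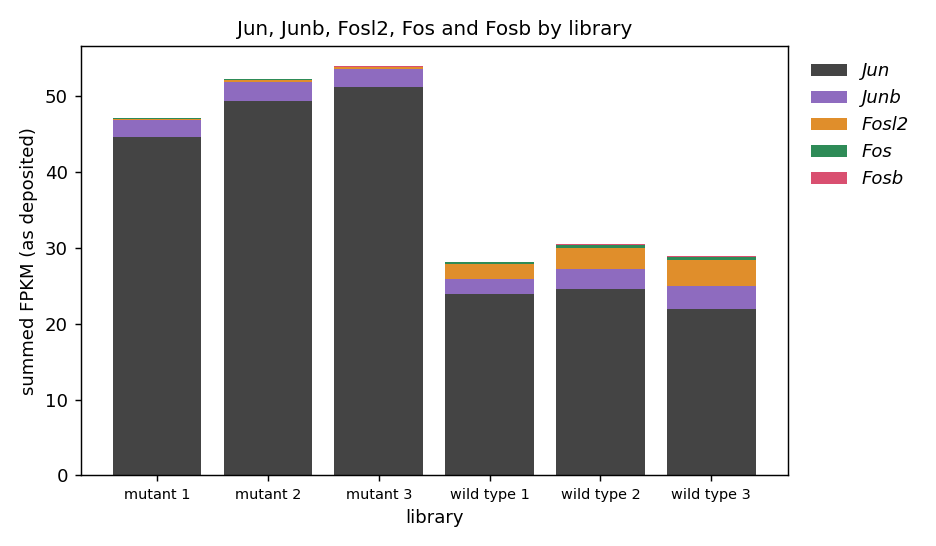
Summed FPKM of Jun, Junb, Fosl2, Fos and Fosb in each library, stacked by gene, on a linear axis from 0. The mutant bars are taller through Jun, while the Fosl2 layer, 7.14% to 11.5% of the wild type bars, is under 1% of the mutant ones.

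Of the Egr genes, Egr3 (ENSMUSG00000033730, chromosome 14, 70077203 to 70082614, plus strand) changed most. It was at 0.549, 0.569 and 0.755 CPM in the mutant, and at 4.21, 4.55 and 4.53 CPM in wild type. Every mutant library lay far below every wild type library, and the wild type libraries lay close together. Egr3 had a log2 fold change of −2.81 ± 0.14 with edgeR adjusted p = 5.65e-05, from 30 reads over the mutant group and 189 over the wild type group.

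Egr1 (ENSMUSG00000038418, chromosome 18, 34859823 to 34864984, plus strand), the factor most used as a marker of neuronal stimulation beside Fos, was at 2.80, 2.53 and 2.64 CPM in the mutant, and at 4.40, 6.82 and 6.52 CPM in wild type. The groups did not overlap, and wild type replicate 1 lay nearest to the mutant. The log2 fold change was −1.17 ± 0.20 with edgeR adjusted p = 0.00447. Without replicate 3 of both groups it was −1.09 with edgeR adjusted p = 0.0544.

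Egr2 (ENSMUSG00000037868, chromosome 10, 67535475 to 67542188, plus strand), known for its part in hindbrain patterning and in myelinating cells, had 5, 1 and 7 reads in the mutant and 1, 1 and 3 reads in wild type. The groups overlapped. The ratio of pooled reads was 2.29 with an interval of 0.767 to 8.21, which includes no change, so a difference was not detectable at this depth. With no filter its log2 fold change was 1.14 with edgeR adjusted p = 0.412.

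Npas4 (ENSMUSG00000045903, chromosome 19, 4984355 to 4990316, minus strand) is induced by calcium entry in neurons and sets inhibitory synapse number in mature circuits. It was at 3.60, 3.86 and 3.65 CPM in the mutant, and at 12.2, 16.3 and 17.9 CPM in wild type. All mutant libraries lay close together and below every wild type library. Npas4 had a log2 fold change of −2.07 ± 0.17 with edgeR adjusted p = 6.54e-05, from 178 reads over the mutant group and 675 over the wild type group.

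Arc (ENSMUSG00000022602, chromosome 15, 74669083 to 74672570, minus strand), the effector at the synapse, was at 2.93, 3.35 and 3.84 CPM in the mutant, and at 2.39, 3.90 and 3.50 CPM in wild type. The groups overlapped. The log2 fold change was 0.03 ± 0.24 (edgeR adjusted p = 0.950), and the ratio of pooled reads was 0.999 with a counting interval of 0.793 to 1.26. Its sign turned when mutant replicate 3 or wild type replicate 1 was left out.

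An exact permutation test, two-sided over the 6 libraries, gave p = 0.1 for each of the 6 called genes, the smallest value that 3 libraries against 3 allow. Over all genes tested, 41.9% had groups that did not overlap, and 21.2% had them apart with the mutant lower. In the authors' deposited table, p was 3.52e-53 for Fosl2, 1.42e-23 for Npas4, 7.25e-22 for Egr3, 5.65e-17 for Jun, 9.35e-07 for Egr1 and 1.85e-05 for Fos. The same table gave 0.101 for Fosb, 0.199 for Egr2, 0.556 for Junb and 0.938 for Arc, with no word on the test.

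The order of levels per length was led by Jun in both genotypes, at 48.4 ± 3.38 FPKM in the mutant and 23.5 ± 1.35 FPKM in wild type (SD, n = 3 each). In the mutant it was followed by Junb at 2.37, Npas4 at 1.14, Arc at 0.653, Egr3 at 0.444, Egr1 at 0.356 and Fosl2 at 0.210 FPKM, each of these above the range of the next. Fos at 0.0937, Egr2 at 0.0499 and Fosb at 0.0334 FPKM overlapped with their neighbours below Fosl2. In wild type Npas4 came second at 4.69 FPKM, followed by Egr3 at 3.10, Fosl2 at 2.74 and Junb at 2.53 FPKM, and these last 3 overlapped from one to the next. Below them came Egr1 at 0.781 and Arc at 0.623 FPKM, which overlapped, then Fos at 0.336, and Fosb at 0.0885 and Egr2 at 0.0208 FPKM, which overlapped too.

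This order depended on the length used. The length implied by count and FPKM was 1416 bases for Egr3, 0.359 times its longest GENCODE M21 transcript of 3940 bases, and 11608 bases for Fosl2, 1.78 times the longest transcript of 6537 bases. For Jun both lengths were 3189 bases. With the longest transcript as length, Fosl2 came second in wild type at 4.90 CPM per kilobase, and Egr3 was at 1.12, overlapping with Egr1 at 1.32. In the mutant Arc, at 1.10 CPM per kilobase, then stood above Npas4 at 0.976 and overlapped with it, and Egr3, at 0.158, came eighth, overlapping with Fos at 0.167. Fold changes within a gene do not depend on that length.

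The spread within groups was compared gene by gene. Wild type replicate 1, the library with the fewest reads, was the lowest of the wild type libraries for 8 of the 10 genes, all but Jun and Egr2, and the highest for 0. Over all genes tested that library was lowest for 36.8%. In the mutant, replicate 1 was lowest for 6 of the 10 genes, against 33.5% of all genes tested. Leaving out wild type replicate 1 kept all 6 calls.

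**Figure D4:**
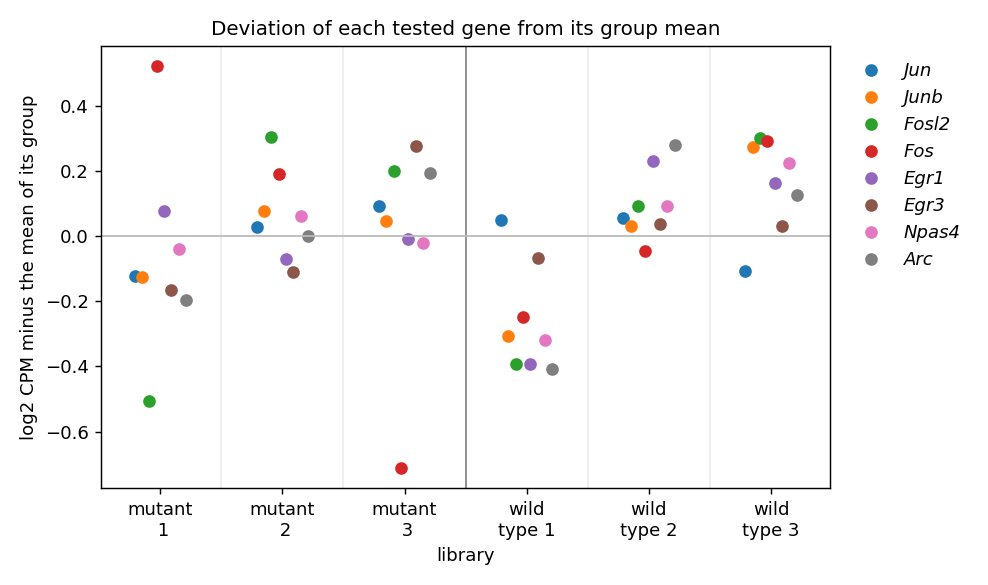
Deviation of each tested gene's log2 CPM from the mean of its own group, by library; a point at 0 lies on its group mean. In wild type replicate 1 all genes except Jun lie below 0, and the widest deviations in the mutant are those of Fos and Fosl2.

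Across libraries the SD of log2 CPM of Npas4 was 0.0537 in the mutant and 0.283 in wild type, and that of Egr1 was 0.0730 in the mutant and 0.343 in wild type. Junb and Arc were also wider in wild type, at 0.108 and 0.194 in the mutant against 0.291 and 0.361 in wild type. The other 4 tested genes were wider in the mutant: Fos at 0.639 against 0.273 in wild type, Fosl2 at 0.441 against 0.355 in wild type, Egr3 at 0.241 against 0.0590 in wild type, and Jun at 0.111 against 0.0917 in wild type. Thus the SD was larger in wild type for 4 of 8 tested members, and for 56.0% of all genes tested. The median SD over these members was 0.152 in the mutant and 0.287 in wild type, beside 0.109 in the mutant and 0.124 in wild type over all genes tested. These medians are not matched for abundance, and counting error widens the log2 SD of genes with few reads. The mutant SDs of Npas4 and Egr1 were smaller than counting error alone gives on average, so they show no narrower expression in the mutant. Wild type replicate 1 lay below its group mean for all tested members except Jun, by log2 deviations from −0.407 (Arc) to −0.0680 (Egr3). The difference in spread was not tested.

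The spread was also given as the chi-square of the reads per degree of freedom, for which counting error alone gives 1 on average. Values below 1 thus show no spread beyond counting error. The median over all genes tested was 1.90 in the mutant and 2.17 in wild type. In the mutant the chi-square per degree of freedom was 0.0841 for Npas4, 0.114 for Egr1, 0.330 for Egr3, 0.384 for Junb, 0.996 for Arc and 1.04 for Fos, while Fosl2 had 3.09 and Jun 14.2. In wild type it was 21.1 for Fosl2, 6.48 for Npas4, 4.51 for Jun, 3.37 for Egr1, 2.37 for Junb, 2.16 for Arc, 0.716 for Fos and 0.0954 for Egr3. Thus in wild type Fosl2, Npas4, Jun, Egr1 and Junb lay above the median of all genes tested, and in the mutant Jun and Fosl2 did. At a given relative spread this measure grows with the number of reads. It therefore does not rank genes or groups of unlike read number by their spread. Fosl2 had 1406 reads in wild type and 116 in the mutant, while its SD of log2 CPM was 0.355 in wild type and 0.441 in the mutant. The wide log2 range of Fos came with counts of 3 to 8 reads in the mutant. Set against the trend of genes of like abundance, edgeR's dispersion estimate of Fosl2 was 2.16 times the trend, the widest of the members, and that of Egr3 was 0.281 times, the narrowest. The other 6 lay between 0.592 and 0.965 times. The median of this ratio was 0.686 over the tested members and 0.610 over all genes tested, so a value below 1 does not mark a narrow gene.

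The genes outside the set whose deviations within groups were most like the mean deviation of the 8 tested members were Ncdn, Nanos3, Aaed1, B130024G19Rik and Slit2. Pearson's r over the 6 libraries was 0.995 to 0.999, given as a description; 379 of 15318 genes reached 0.9, and the libraries share their depth differences. Of these genes Slit2 had adjusted p = 0.0306 in edgeR's comparison of the genotypes, and the other 4 had 0.491 to 0.787.

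Other genes of rapid response did not share one direction. Among 30 such genes 7 rose and 5 fell, 18 not passing the test, with a median log2 fold change of 0.15 beside 0.0028 over all genes tested. For this list and those below, the shares called over all genes tested were 12.8% lower and 11.2% higher. Gadd45g, a stress and differentiation gene, rose to 231.6 ± 14.4 CPM in the mutant, against 60.5 ± 1.66 CPM in wild type (edgeR adjusted p = 8.81e-07). Btg2, which restrains proliferation of neural progenitors, rose to 192.8 ± 11.7 CPM in the mutant, against 61.4 ± 6.92 CPM in wild type. Nr4a2, an orphan nuclear receptor, also rose, by 2.84 on the log2 scale. Myc fell to 10.6 ± 0.392 CPM in the mutant, against 22.2 ± 3.27 CPM in wild type.

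Genes that act downstream of neuronal activity were split too. Of 16 tested, 5 fell, 2 rose and 9 did not pass (median −0.30). Plk2, a kinase of synaptic scaling, fell to 56.2 ± 4.23 CPM in the mutant, against 260.3 ± 14.2 CPM in wild type (edgeR adjusted p = 8.81e-07). Inhba, the activin subunit, fell to 0.519 ± 0.0666 CPM in the mutant, against 6.78 ± 0.829 CPM in wild type. Its mutant libraries, at 0.443 to 0.566 CPM, lay below the filter on low counts at 0.634 CPM. Inhba was thus kept through its wild type reads, and its place among the 5 lower genes is no support for a shared direction. Vgf, a secreted neuropeptide precursor, fell by 1.78 on the log2 scale. Nptx2, a pentraxin of excitatory synapses, rose by 0.70.

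Partners of the Fos, Jun, Egr and Npas4 proteins were read next. Of 11 tested AP-1, ATF and Maf relatives, 0 passed in either direction (median 0.15), and Jund, the third Jun gene, was at 235.1 ± 30.6 CPM in the mutant and 220.3 ± 10.1 CPM in wild type. Nab1 and Nab2, corepressors that bind Egr proteins, were the 2 tested genes of the Egr list and did not pass the test. Nab1 was at 18.4 ± 4.25 CPM in the mutant and 26.5 ± 3.98 CPM in wild type (edgeR adjusted p = 0.0645). Among 5 relatives and partners of Npas4, 3 fell and 1 rose. Arnt2, its main partner in neurons, fell to 425.8 ± 15.6 CPM in the mutant, against 494.5 ± 14.1 CPM in wild type, and Npas1 fell by 1.999 on the log2 scale (edgeR adjusted p = 1.39e-04).

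Genes upstream of the members were counted beside the 12.8% lower and 11.2% higher over all genes tested. Of 17 transcription factors and coactivators, 3 fell and 0 rose (median 0.06). They were Mkl2, a cofactor of SRF, at 43.3 ± 2.39 CPM in the mutant and 100.4 ± 5.24 CPM in wild type, and the MEF2 genes Mef2c and Mef2d, which fell by 1.76 and 0.54 on the log2 scale. Of 19 kinases, 8 fell and 0 rose (median −0.18), among them the calcium-activated Camk2a at 25.7 ± 0.916 CPM in the mutant and 52.3 ± 3.18 CPM in wild type. Of 9 feedback inhibitors of MAP kinase signalling, 2 rose and 3 fell (median −0.16), with the phosphatase gene Dusp4 at 153.4 ± 4.39 CPM in the mutant and 60.3 ± 6.95 CPM in wild type.

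Signs of stress and of other cell types were read beside these results. Of 12 heat shock and chaperone genes, 3 fell and 0 rose, and the list summed to 3825 to 4023 CPM in the mutant and 4455 to 4595 CPM in wild type. That sum was carried by Hsp90ab1, at 1595 CPM in the mutant and 1933 CPM in wild type. Hspa1a, Hspa1b, Hspb1 and Dnajb1 were not called (edgeR adjusted p = 0.530, 0.0973, 0.210 and 0.273). LGE markers fell in 13 of 15 cases and rose in 1, with sums of 1914 to 2509 CPM in the mutant and 5731 to 6348 CPM in wild type. The 1 that rose was Gsx2, at 54.7 CPM in the mutant and 24.7 CPM in wild type. This list and its sums include the targeted genes Dlx1 and Dlx2, whose fall says nothing on tissue make-up. For the other LGE markers fewer cells and less RNA per cell cannot be told apart. Dlx1 and Dlx2 averaged 122.1 and 16.8 CPM in the mutant, and 857.9 and 436.3 CPM in wild type. Endothelial markers, 2 of 9 lower, summed to 204.2 to 213.5 CPM in the mutant and 226.3 to 252.9 CPM in wild type. The largest part of the endothelial sum was Slc2a1, at 59.4 CPM in the mutant and 77.5 CPM in wild type. The median log2 fold change of that list was −0.08. Microglia and macrophage markers, 1 of 9 higher, summed to 69.5 to 80.6 CPM in the mutant and 57.9 to 66.8 CPM in wild type. Mural and meningeal fibroblast lists had 1 higher and 1 lower each, of 6 and 5 tested, and summed to 170.8 to 180.3 and 46.4 to 48.2 CPM in the mutant, against 160.3 to 171.4 and 31.8 to 41.3 CPM in wild type. The mural sum was carried by Pdgfrb, at 89.6 CPM in the mutant and 63.8 CPM in wild type, while the list median log2 fold change was −0.25. The fibroblast sum was carried by Pdgfra, at 31.5 CPM in the mutant and 19.2 CPM in wild type, while Col1a1 was at 1.02 CPM in the mutant and 4.59 CPM in wild type. Erythroid markers, 2 of 7 higher, summed to 583.7 to 783.2 CPM in the mutant and 436.3 to 645.2 CPM in wild type. Choroid plexus markers, 1 of 2 in each direction, summed to 28.1 to 34.4 CPM in the mutant and 6.82 to 9.23 CPM in wild type, mostly through Otx2. The lower of the 2 was Clic6, with 3 reads over the mutant group and 43 over the wild type group, kept through its wild type reads. Ttr, the defining gene of the choroid plexus, averaged 0.105 CPM in the mutant and 0.130 CPM in wild type. Pallial markers, 1 of 4 higher, summed to 43.8 to 74.5 CPM in the mutant and 22.7 to 59.0 CPM in wild type, but Neurod6 alone was higher, at 44.6 CPM in the mutant and 8.05 CPM in wild type; the other 3 had log2 fold changes of −1.23 to −0.89, and the list median was −0.95. No marker found in the table was at 0 in all libraries. The part of these lists in the changes of the immediate early genes was not tested.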

How the data were processed

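RNA was sequenced from 3 mutant and 3 wild type LGE samples. Per the submitters' processing notes, edgeR, StringTie 1.3.0 and HISAT2 2.0.4 were used, with mm10 or GRCm38.p4 as build; their order and settings, the annotation and the strand setting of the counting are unknown here. The deposited counts are whole numbers per gene, per the file headers, and FPKM values and a p-value per gene are deposited beside them; the authors' p-value was only quoted. Library totals were 10711630 to 16588359, at which 3 reads are 0.181 to 0.280 CPM.

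In R 4.3.3, edgeR 4.0.16 kept 15326 of 21286 genes by filterByExpr (minimum count 10), scaled libraries by TMM and compared the genotypes by its two-sided quasi-likelihood F test with Benjamini-Hochberg adjustment over all genes tested and a threshold of 0.05. CPM is TMM-scaled, log2 CPM has 0.5 added to counts, and each SE was taken from the SD of log2 CPM in both groups. DESeq2 1.42.0 was an alternative. Positions come from GENCODE M21 on GRCm38. Replicate pairs differed by a chi-square of 7.54 to 14.9 per degree of freedom, so no library was a copy. The library names follow one scheme in the mutant and another in wild type, and no label names a batch; a difference in handling between these sets and the genotype cannot be told apart. The script was tested on simulated counts.

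The members and the 17 gene lists (196 of 198 entries found) were chosen with earlier results of these data known. Named were all members, in each list up to 4 called genes with the smallest adjusted p or, with none called, the 2 most abundant, and the 5 genes most like the members; not all of these are given. The measurement that led to leaving out both replicates 3 is not reported here.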

Additional observations from a re-analysis of the deposited data

How the results depend on the processing

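Leaving out each library in turn, RLE scaling, no filter on low counts, DESeq2's Wald test, a 2-fold minimum and an adjusted p below 0.01 each gave 5 members lower and 1 higher. Without mutant and wild type replicates 3 together, a choice made after the data were seen, the counts were 3 and 1, as Fos and Egr1 lost the call; over all genes 1223 were then lower and 1073 higher, against 1958 and 1715 with all libraries. That fit had 2 libraries per group, and the cause was not tested. A 2-fold minimum gave 619 lower and 436 higher genes, and an adjusted p below 0.01 gave 1116 and 875. Leaving out 1 library gave 1956 to 1416 lower and 1626 to 1211 higher genes; for single members it gave −2.17 to −1.57 for Fos, −0.138 to 0.166 for Arc, whose sign turned, and −0.266 to 0.0163 for Junb, whose sign turned without wild type replicate 3. Without both replicates 3 Arc was at −0.0302. With the replicate number as a block, 1458 genes were lower and 1223 higher and the same counts of members, 5 and 1, were called; deviations of same-numbered libraries correlated at −0.176, 0.0426 and −0.168 across genes, so the numbers were not taken to pair the libraries. The median SD of the members stayed between 0.144 and 0.153 in the mutant and between 0.276 and 0.305 in wild type under the other pseudocount and scalings. Depth limits Fos, Fosb and Egr2, with 17, 6 and 13 reads over the mutant group and 56, 16 and 5 over the wild type group.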
